A study of Homo sapiens with 12 samples.

Results

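The microRNA miR-7 was followed together with Cyrano, the long RNA listed as OIP5-AS1, and with HNRNPK, the gene that carries the miR-7-1 hairpin. The members were chosen by name: hsa-miR-7-5p and hsa-miR-7-1-3p of 1153 microRNAs (miRNAs) counted, and OIP5-AS1 and HNRNPK of 67053 genes, which makes 4 of 68206 features. HEK293T, a human embryonic kidney line that expresses the SV40 large T antigen, was transfected with 2 µg of a GFP reporter plasmid and lysed after 48 h. In the BCL2L11 group the reporter's 3′ untranslated region held a trigger of target-directed miRNA degradation from BCL2L11, in the TRIM9 group one from TRIM9, and the GFP group is labelled with GFP alone. The intended targets were miR-221/222 for the first trigger and miR-218 for the second, so miR-7 was a miRNA that neither plasmid was meant to pair with. Each group had 2 small RNA libraries (inserts of 18 to 40 nt) and 2 poly-A libraries, 12 libraries in all, described as biological replicates. Every group received plasmid, by PEI or lipofectamine; the sources used here do not say which reagent a given sample received.

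miR-7 is an ancient miRNA that is abundant in neurons and endocrine cells and restrains growth factor signalling and other targets. Its guide strand, the 5p arm, is cut from several hairpins, and that of miR-7-1 lies in an intron of HNRNPK, which encodes an abundant poly(C)-binding nuclear protein. In the mouse brain Cyrano holds a highly complementary site for miR-7 and removes it by target-directed degradation, the pathway used by the triggers of this study, while the circular RNA Cdr1as holds many miR-7 sites.

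The mature arms are shown because the arms of 1 hairpin were counted apart and because the 5p arm alone cannot be assigned to a hairpin. Capitals mark the seed, bases 2 to 8 from the 5′ end, and the sequences are those of RefSeq for GRCh38.p14.
hsa-miR-7-5p: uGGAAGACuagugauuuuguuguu
hsa-miR-7-1-3p: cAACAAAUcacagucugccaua
hsa-miR-7-2-3p: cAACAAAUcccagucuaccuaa
The 5p arm of 24 nt lies at chr9:83969811-83969834 (minus strand) in MIR7-1 and, with the same bases, at chr19:4770700-4770723 (plus strand) in MIR7-3, and it is also found as bases 32 to 55 of the 110-nt MIR7-2 hairpin on chromosome 15. Its reads therefore pool several loci. The 3p arm of miR-7-1, 22 nt at chr9:83969771-83969792 (minus strand), belongs to 1 hairpin; the 3p arm of miR-7-2 differs from it by A10C, G17A, A20U and U21A, counted from the 5′ end with the miR-7-1 base first, and was not analysed here. Of the 1153 counted miRNAs, 1031 had a mature sequence in the reference table, and 1 name in that table, miR-7-5p itself, had its seed.

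Reads assigned to miRNAs numbered 5018875 to 6091151 per small RNA library, and the poly-A libraries had 83584 to 110534 transcripts with FPKM above 0. Each group had 1 library of title numbers 1 to 3, called library set 1 here, and 1 of title numbers 4 to 6, called set 2. The labels state neither a shared batch nor pairing for these sets. Transcripts with FPKM above 0 numbered 109805, 109975 and 110534 in set 2 (BCL2L11, TRIM9, GFP) and 100723, 99690 and 83584 in set 1. The part of this in the poly-A differences was not tested. Of 7 genes listed as expressed in HEK293 lines, such as NEFL and LIN28B, 6 had at least 1 FPKM in all 6 libraries. The exception, the kidney developmental factor PAX2, was as low as 0.0886 FPKM. The endocrine markers INS and GCG and the blood markers PTPRC and HBB were listed at 0 in every library. Other markers were present in every library: the neuronal SYP had 3.74 to 8.4 FPKM and the blood marker HBA1 2.35 to 7.45 FPKM. The fibroblast marker COL1A1 had 1.27 to 4.02 FPKM. The highest value over the neuronal, endocrine, blood, fibroblast and liver markers was 8.4 FPKM.

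miR-7-5p was 1 of the most abundant miRNAs of these cells and did not pass the test in any comparison of the triggers. It had 863860 reads in set 2 and 690344 in set 1 of the BCL2L11 group, 692524 and 833909 in the TRIM9 group, and 686671 and 846267 in the GFP group. These were 14.2% and 13.8% of the miRNA reads with BCL2L11, 12.9% and 15.7% with TRIM9 and 13.0% and 16.2% with GFP. It ranked 2 in each of the 6 libraries, after miR-148a-3p. The ranges of the 3 groups overlapped, and the highest share stood in a GFP library.

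Against the rest of the small RNA, miR-7-5p was 1 of 10 miRNAs that led by mean level. On average it held 14.3% of the reads, against 61.2% for miR-148a-3p and 3.06% for miR-10a-5p, which came next. The other seven were miR-21-5p, miR-25-3p, miR-92a-3p, miR-10b-5p, miR-30d-5p, miR-218-5p and miR-151a-3p, down to 0.695% for miR-30d-5p. Reads of miR-148a-3p per read of miR-7-5p numbered 4.45 and 4.37 with BCL2L11 (set 2, set 1), 5.21 and 3.67 with TRIM9, and 4.71 and 3.57 with GFP. This ratio needs no scaling between libraries, and it was higher in set 2 than in set 1 in each group.

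For tests, counts were scaled by TMM, which sets library factors from the bulk of the miRNAs, and fitted in edgeR. In TMM-scaled CPM, reads brought to a common library size, miR-7-5p averaged 141328 ± 18314 with BCL2L11, 150505 ± 22132 with TRIM9 and 138168 ± 22132 with GFP (SD, n = 2 each). BCL2L11 minus GFP was 0.03 on the log2 scale (SE 0.18, 95% interval -0.37 to 0.44, adjusted p = 0.995 in edgeR). TRIM9 minus GFP was 0.12 (SE 0.18, interval -0.28 to 0.53, adjusted p = 0.973 in edgeR), and BCL2L11 minus TRIM9 was -0.09 (SE 0.18, interval -0.5 to 0.32, adjusted p = 0.989 in edgeR). The intervals reach from -0.37 to 0.53 against GFP, and a p that misses the threshold does not show that the groups were alike. Within set 2 the difference of BCL2L11 from GFP was 0.33 and within set 1 it was -0.26; that of TRIM9 from GFP was 0.44 and -0.19. After TMM scaling the direction thus turned between the sets for both triggers. As a share of the reads, TRIM9 stood below GFP in both sets, at 12.9% against 13.0% (set 2) and 15.7% against 16.2% (set 1). Its turn between the sets was thus seen only after TMM scaling. The direction over both sets depended on the scaling too: by total counts the differences were -0.06 for BCL2L11 and -0.03 for TRIM9. The lowest TMM factor was 0.7775, in the TRIM9 library of set 2, and the highest was 1.166, in that of set 1.

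The 3p arm of miR-7-1 was rare beside the 5p arm. It had 174 reads in set 2 and 307 in set 1 of the BCL2L11 group, 133 and 362 in the TRIM9 group, and 211 and 328 in the GFP group. Each group held a low and a high library, and the 3 groups overlapped. BCL2L11 minus GFP was -0.14 (SE 0.40, interval -1.06 to 0.78, adjusted p = 0.995 in edgeR), and TRIM9 minus GFP was -0.10 (SE 0.40, interval -1.02 to 0.82, adjusted p = 0.988 in edgeR). BCL2L11 minus TRIM9 was -0.04 (SE 0.40, interval -0.97 to 0.88, adjusted p = 0.989 in edgeR). Within set 2 the difference from GFP was -0.28 for BCL2L11 and -0.24 for TRIM9, and within set 1 it was -0.06 and -0.03, so both triggers stood below GFP in both sets. With the library set as a block the differences were -0.17 and -0.13 (SE 0.19 each), with adjusted p-values of 0.994 and 0.855 in edgeR. Neither arm passed in any of the 3 comparisons, in which 0.226% (BCL2L11 minus GFP), 0.0% (TRIM9 minus GFP) and 0.226% (BCL2L11 minus TRIM9) of the 443 miRNAs tested passed at an adjusted p of 0.05. For TRIM9 minus GFP these were 0 miRNAs in edgeR and 0 in DESeq2, with 20 at an unadjusted p under 0.05 in edgeR. With 2 libraries on each side, the smallest p an exact permutation test allows is 0.333.

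The authors' deposited miRNA tables gave log2 fold changes against GFP of 0.04 with BCL2L11 (adjusted p = 0.999) and 0.12 with TRIM9 (adjusted p = 0.997) for miR-7-5p. For miR-7-1-3p they gave -0.14 with BCL2L11 and -0.11 with TRIM9, with the same adjusted p-values. In the authors' deposited isoform tables, whose unit of counting the sources used here do not state, miR-7-5p had 0.00 with BCL2L11 and 0.02 with TRIM9. There miR-7-1-3p had -0.01 with BCL2L11 (SE 0.56) and 0.16 with TRIM9 (SE 0.55), so the TRIM9 value was of the other sign.

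miR-7-1-3p separated the library sets, not the trigger groups. After TMM scaling it stood at 31.07 CPM in the BCL2L11 library of set 2 and 57.09 in that of set 1. It stood at 31.91 CPM and 58.54 CPM in the TRIM9 libraries of sets 2 and 1, and at 37.65 CPM and 59.62 CPM in the GFP libraries. All 3 libraries of set 2 lay below all 3 of set 1, with means of 33.5 ± 3.6 CPM in set 2 and 58.4 ± 1.3 CPM in set 1 (SD, n = 3 each). Counting error alone, as a 95% Poisson interval, reached 241.5 reads for the highest library of set 2 and began at 273.6 for the lowest of set 1; such intervals cover counting error only, since the reads carried no molecular identifiers that the sources used here name.

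In a fit of group and set, a comparison added after the data were seen, set 2 minus set 1 was -0.80 for miR-7-1-3p (SE 0.15, interval -1.12 to -0.48, adjusted p = 0.00137 in edgeR, lower in set 2 in 3 of 3 groups). Of all 443 miRNAs, 12.6% passed between the sets, 4.74% higher and 7.9% lower in set 2; 1 of the 2 arms passed. By total counts the difference was -1.06 (adjusted p = 0.00201 in edgeR). Leaving out 1 library also takes its group out of this comparison: without the BCL2L11 library of set 2 the adjusted p was 0.129 in edgeR and 2 of all miRNAs passed, and without that of set 1 it was 0.0674 and 14 passed, against 56 with all libraries. The difference itself was -0.77 in both cases. For miR-7-5p set 2 minus set 1 was 0.08 (SE 0.12, interval -0.18 to 0.34, adjusted p = 0.811 in edgeR), and -0.18 by total counts. Libraries of set 2 detected 802, 745 and 778 miRNAs (BCL2L11, TRIM9, GFP) and those of set 1 detected 830, 840 and 794; the part of this in the set difference was not tested.

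Reads of miR-7-5p per read of miR-7-1-3p gave the same picture without any scaling. The ratio was 4965 in set 2 and 2249 in set 1 of the BCL2L11 group, 5207 and 2304 in the TRIM9 group, and 3254 and 2580 in the GFP group. Over all libraries it was 3045. Among the 94 arm pairs of 1 name with both arms tested, the median ratio of the higher to the lower arm was 9.89 and the highest was 1605. None of the 94 thus reached the ratio of miR-7. Pairs whose arms differ in name, as those of miR-7 do, and pairs with an arm too rare to be tested were not compared. The 5p arm has the same bases in several hairpins and the 3p arm belongs to 1; the part of other hairpins in the ratio was not tested.

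**Figure D1:**
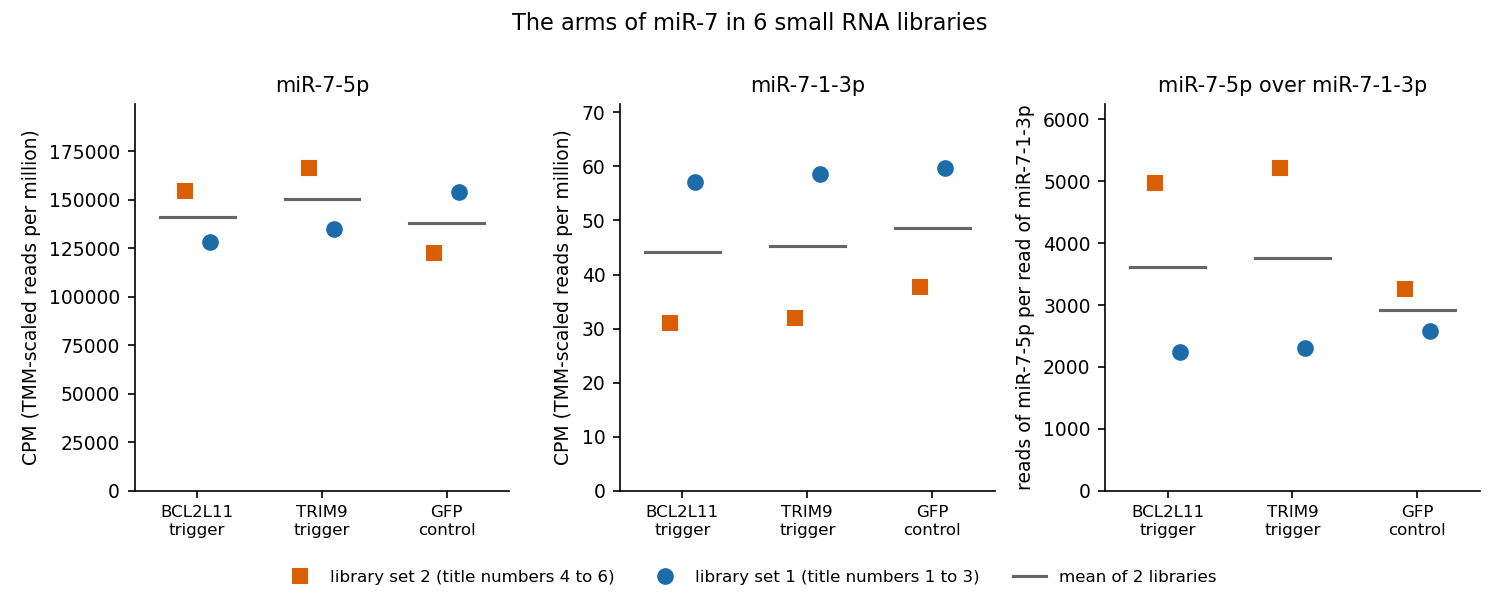
TMM-scaled CPM of miR-7-5p and of miR-7-1-3p, and reads of the 5p arm per read of the 3p arm, in each small RNA library by group (x axis), with squares for library set 2, circles for set 1 and a line at the mean of 2 libraries. miR-7-1-3p lies between 31.07 and 37.65 CPM in set 2 and between 57.09 and 59.62 CPM in set 1, while miR-7-5p is higher in set 2 with both triggers and lower in set 2 with GFP.

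Cyrano was expressed at a middle level in these cells. As FPKM summed over its 10 transcript models it had 9.84 FPKM in set 2 and 6.49 in set 1 of the BCL2L11 group, 13.8 and 8.61 in the TRIM9 group, and 10.8 and 9.45 in the GFP group. By mean level, 9.82 FPKM, it ranked 5768 among 15183 genes tested, above 62.0% of them. OIP5-AS1 (ENSG00000247556.6) spans chr15:41283990-41309737 on the plus strand of hg38. The lowest library was of the BCL2L11 group and the highest of the TRIM9 group, and the groups overlapped. In bulk RNA, fewer expressing cells and less RNA per cell cannot be told apart.

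On the log2(FPKM + 1) scale, fitted in limma, OIP5-AS1 differed by -0.30 between BCL2L11 and GFP (SE 0.35, interval -1.13 to 0.54) and by 0.10 between TRIM9 and GFP (SE 0.35, interval -0.73 to 0.94). Between BCL2L11 and TRIM9 the difference was -0.40 (SE 0.35, interval -1.24 to 0.43), and each adjusted p was 1.0 in limma. The BCL2L11 library was the lower in both sets: against GFP the difference was -0.12 in set 2 and -0.48 in set 1, and against TRIM9 it was -0.44 and -0.36. TRIM9 minus GFP was 0.33 in set 2 and -0.12 in set 1.

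HNRNPK, which binds C-rich RNA and DNA and acts in splicing, transcription and translation, was among the most abundant messages. It had 349.8 FPKM in set 2 and 300.7 in set 1 of the BCL2L11 group, 373.5 and 300.0 in the TRIM9 group, and 372.3 and 242.4 in the GFP group. It ranked 174 of 15183 genes by mean FPKM, above 98.9% of them, and was number 4 of the 25 hnRNP and PCBP genes listed, after HNRNPA2B1, HNRNPA1 and HNRNPC. HNRNPK (ENSG00000165119.21) spans chr9:83968083-83980616 on the minus strand of hg38. The lowest library was of the GFP group, and in each group the library of set 1 was the lower. BCL2L11 minus GFP was 0.11 (SE 0.37, interval -0.77 to 0.99), TRIM9 minus GFP was 0.16 (SE 0.37, interval -0.72 to 1.04) and BCL2L11 minus TRIM9 was -0.05 (SE 0.37, interval -0.93 to 0.83) on the log2(FPKM + 1) scale, each with an adjusted p of 1.0 in limma. Within set 1 both triggers stood 0.31 above GFP; within set 2 the differences were -0.09 for BCL2L11 and 0.0 for TRIM9.

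The authors' deposited gene table for BCL2L11 gave HNRNPK a fold of 1.33 (log2 0.41, p = 0.029, q = 1.0 in that table), and the table for TRIM9 gave 1.2 (log2 0.27, p = 0.309, q = 1.0 in that table). The sources used here do not state the tool and scale behind these values, and the log2 values are larger than those computed from the deposited FPKM. Neither OIP5-AS1 nor HNRNPK passed in any comparison in limma, in which 0.00659% (BCL2L11 minus GFP), 0.00659% (TRIM9 minus GFP) and 0.0132% (BCL2L11 minus TRIM9) of 15183 genes passed.

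**Figure D2:**
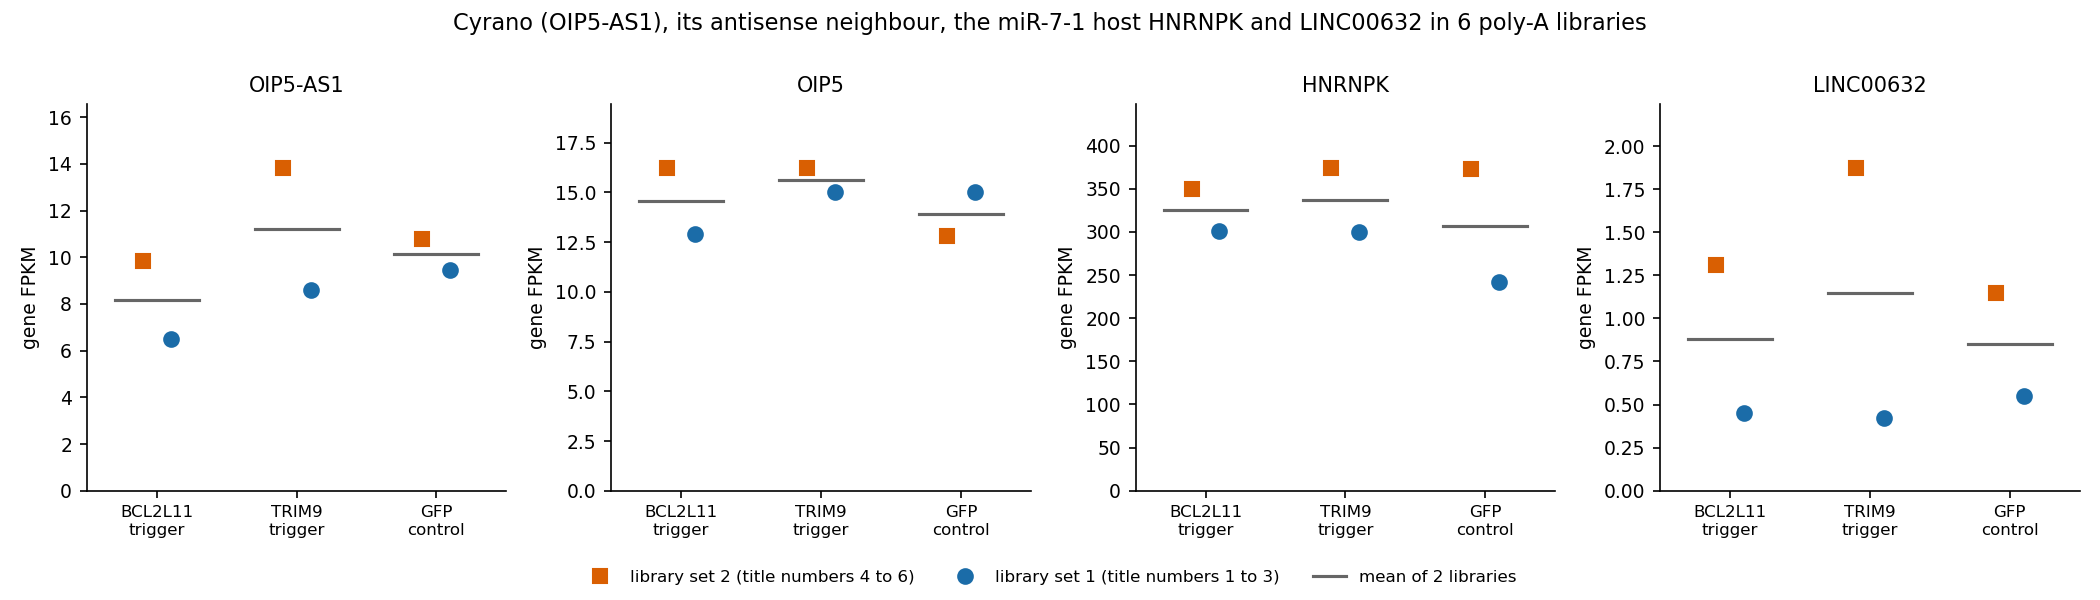
Gene FPKM of OIP5-AS1 (Cyrano), its antisense neighbour OIP5, HNRNPK and LINC00632 in each poly-A library by group (x axis), with squares for library set 2, circles for set 1 and a line at the mean of 2 libraries. OIP5-AS1, HNRNPK and LINC00632 are higher in set 2 in each of the 3 groups, and the groups overlap for OIP5-AS1 and HNRNPK.

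Both genes stood higher in set 2 than in set 1 in 3 of 3 groups without passing. For OIP5-AS1 the means were 11.4 ± 2.05 FPKM in set 2 and 8.18 ± 1.53 FPKM in set 1 (SD, n = 3 each), with a difference of 0.44 on the log2(FPKM + 1) scale (SE 0.15, interval 0.07 to 0.81, adjusted p = 0.0725 in limma). Without either GFP library the difference was 0.58 and passed (adjusted p = 0.0115 in limma). For HNRNPK the means were 365.2 ± 13.4 FPKM in set 2 and 281.0 ± 33.5 FPKM in set 1 (SD, n = 3 each), with a difference of 0.38 (SE 0.15, interval 0.01 to 0.76, adjusted p = 0.102 in limma). With FPKM rescaled by TMM the difference between the sets was 0.30 for OIP5-AS1 (adjusted p = 0.198 in limma) and 0.23 for HNRNPK (adjusted p = 0.26 in limma). Between the sets 32.9% of all genes passed, 22.5% higher and 10.3% lower in set 2, so such a difference was common; without 1 library the number that passed ran from 1265 to 8178, against 4991 with all. The difference moved with transcript length over all models tested: its median was -0.216 for those up to 1000 nt and 0.458 for those over 4000 nt, and the part of length in the values of OIP5-AS1 and HNRNPK was not tested.

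**Figure D3:**
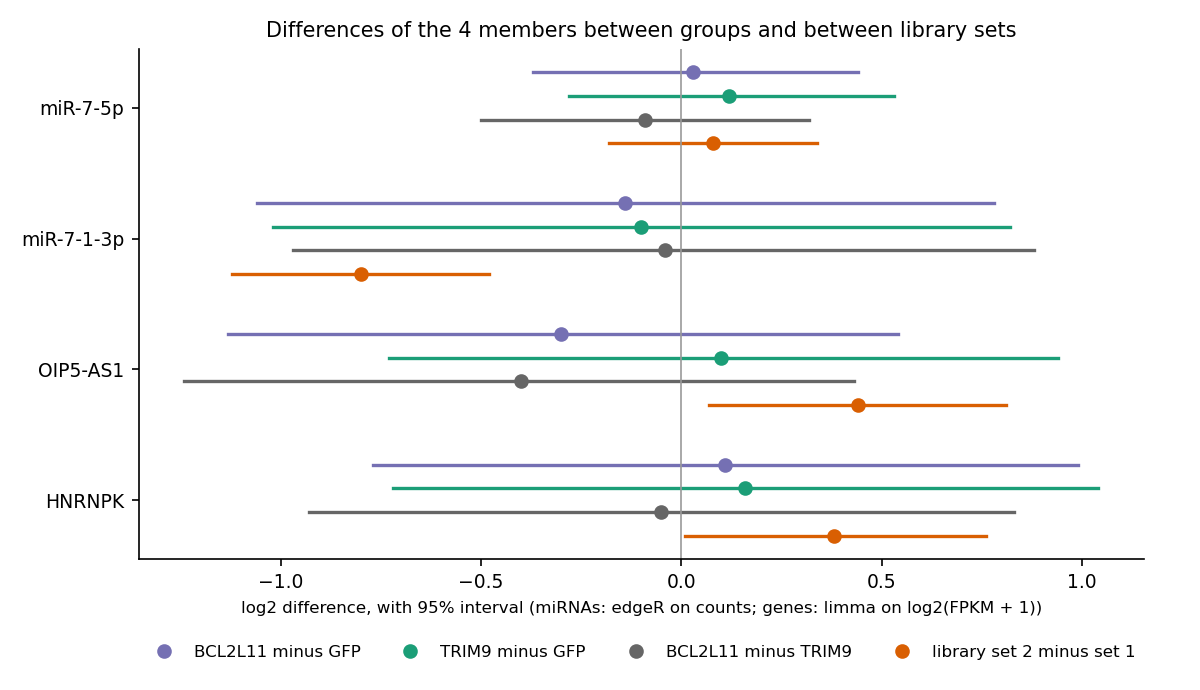
Log2 differences of miR-7-5p, miR-7-1-3p, OIP5-AS1 and HNRNPK (rows) with 95% intervals for the 3 comparisons between groups and, in orange, for library set 2 minus set 1, from edgeR on counts for the miRNAs and limma on log2(FPKM + 1) for the genes. The intervals between groups come from a fit of group alone, and those between sets from a fit of group and set. For BCL2L11 minus GFP, the SE without and with the set as a block was 0.40 and 0.19 for miR-7-1-3p. For HNRNPK it was 0.37 and 0.19. Every interval between groups shown here spans 0, and of the intervals between sets that of miR-7-1-3p, -1.12 to -0.48, lies farthest from 0.

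Of the models of Cyrano, 1 long one held the largest share in each of the 6 libraries. ENST00000500949.6, 8829 nt, held 70.8% of the gene's FPKM in set 2 and 50.3% in set 1 of the BCL2L11 group, 52.1% and 38.8% in the TRIM9 group, and 57.4% and 44.6% in the GFP group. Its FPKM was 6.97 and 3.26 with BCL2L11 (set 2, set 1), 7.17 and 3.34 with TRIM9, and 6.17 and 4.22 with GFP, at a mean read depth of 16.2 to 35.1 per base. The ranges of the 3 groups overlapped, and set 2 minus set 1 was 0.76 on the log2(FPKM + 1) scale (SE 0.23, interval 0.13 to 1.39, adjusted p = 0.178 in limma). ENST00000557993.5, 1482 nt, ran the other way. It had 1.19 and 1.51 FPKM with BCL2L11 (set 2, set 1), 2.19 and 2.31 with TRIM9, and 1.26 and 2.69 with GFP. Set 2 minus set 1 was -0.32 for this model (SE 0.26, adjusted p = 0.493 in limma). Among all 33099 models tested, 0 passed between the sets, with 7673 at an unadjusted p under 0.05 in limma.

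Another model of Cyrano was low in the BCL2L11 group. ENST00000501665.2, 1384 nt, had 0.0 FPKM in set 2 and 0.42 in set 1 with BCL2L11, 1.74 and 1.31 with TRIM9, and 1.38 and 1.61 with GFP. This model reached 1 FPKM in the TRIM9 and GFP libraries alone, so it met the filter only through the groups where it was high. Its p-values against those groups therefore give no support. The BCL2L11 libraries lay below the other 4, but no adjusted p was under 1.0 in limma: BCL2L11 minus GFP was -1.07 (SE 0.41, unadjusted p = 0.0395 in limma) and BCL2L11 minus TRIM9 was -1.08 (SE 0.41, unadjusted p = 0.0376 in limma). It is the 1 model of the 10 that reaches OIP5, a mitotic centromere gene on the other strand, over 465 bp, and since the counting is not stated to use strand, reads there cannot be told apart. OIP5 had 16.2 and 12.9 FPKM with BCL2L11 (set 2, set 1), 16.2 and 15.0 with TRIM9, and 12.8 and 15.0 with GFP; the BCL2L11 library was above GFP in set 2 and the lowest in set 1. AC087721.2, on the same strand over 25731 bp of Cyrano, was listed at 1.56 and 0.0 FPKM in the BCL2L11 libraries of sets 2 and 1, and at 0.0 to 0.201 FPKM in the other 4.

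For HNRNPK the sum was steadier than its division among models. The 3 models over 2600 nt together held 90.0% to 94.4% of the gene's FPKM in each library. ENST00000351839.7, 2652 nt, had 256.5 and 51.3 FPKM with BCL2L11 (set 2, set 1), 268.3 and 198.2 with TRIM9, and 244.7 and 146.2 with GFP. ENST00000376263.8, 2889 nt, had 6.57 and 117.1 FPKM with BCL2L11, 2.94 and 47.4 with TRIM9, and 2.83 and 5.24 with GFP. The BCL2L11 library of set 1 thus stood apart in the first model, with 17.1% of HNRNPK where the remaining libraries had 60.3% to 73.3%. The other model held 38.9% there, 15.8% in the TRIM9 library of set 1 and 0.761% to 2.16% in the rest. ENST00000376281.8, 2928 nt, had 53.2 and 102.1 FPKM with BCL2L11, 66.6 and 27.7 with TRIM9, and 87.4 and 77.2 with GFP. These models differ little in length and share most of their span, so the division of reads among them is uncertain.

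Of the 8 shorter models of HNRNPK, the highest by mean were ENST00000457156.5 (11.2 FPKM), ENST00000360384.9 (6.37 FPKM), ENST00000493362.1 (4.23 FPKM), ENST00000481820.6 (2.54 FPKM) and ENST00000492865.1 (1.81 FPKM), and the other three had means of 0.718 to 1.54 FPKM. Of the 14 models tested, 11 of HNRNPK and 3 of OIP5-AS1, 0 passed in any comparison of the triggers in limma. In the same fit 2 unadjusted p-values, both of ENST00000501665.2, were under 0.05. That model met the filter only through the groups where it was high, so these p-values give no support. Among all 33099 models tested 0.0% (BCL2L11 minus GFP), 0.00302% (TRIM9 minus GFP) and 0.00302% (BCL2L11 minus TRIM9) passed, with 900, 982 and 714 at an unadjusted p under 0.05. There were 5 HNRNPK pseudogenes listed, with values of at most 0.494 FPKM. The antisense gene AL354733.3 overlaps HNRNPK over 3545 bp and had 0.111 to 1.62 FPKM.

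**Figure D4:**
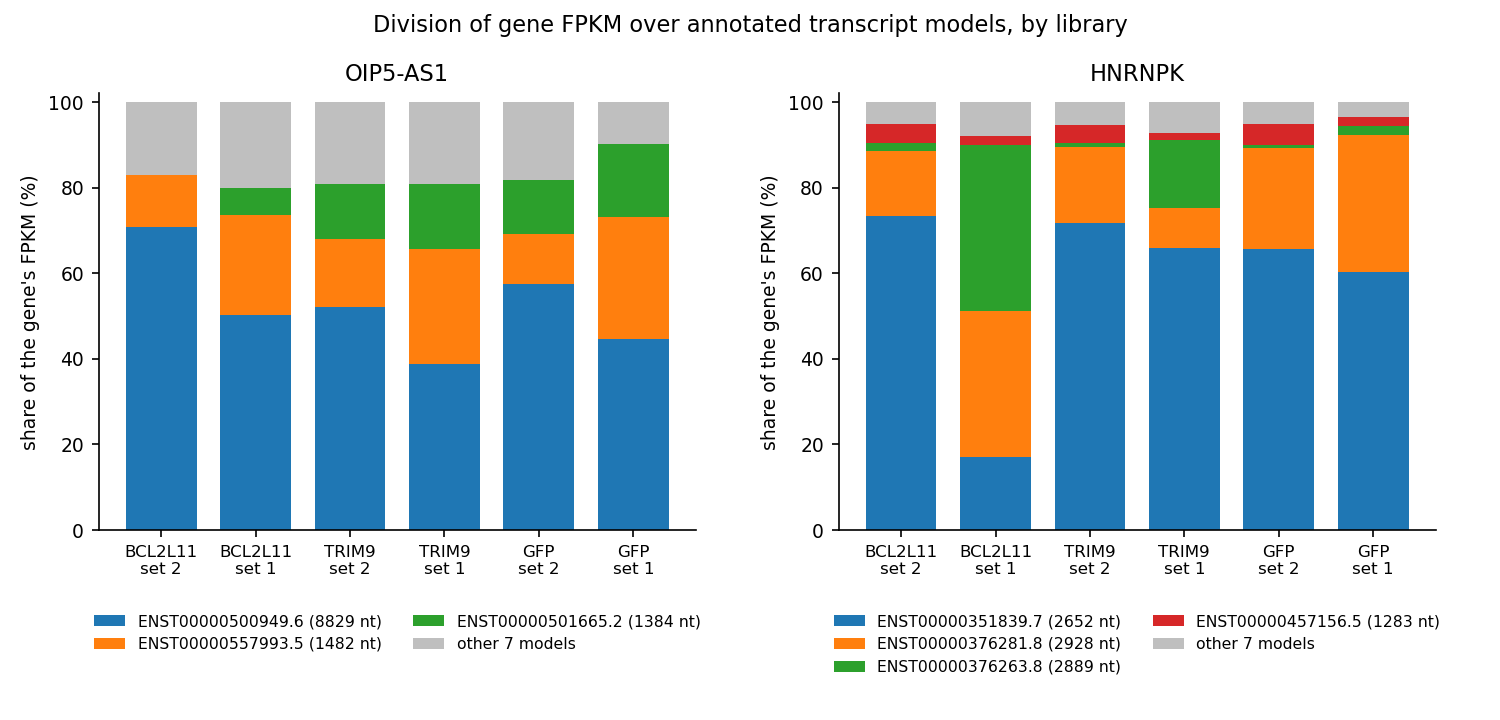
Share of gene FPKM (y axis, percent) held by each transcript model of OIP5-AS1 (left) and HNRNPK (right) in each poly-A library (x axis, by group and library set). The 8829-nt model of OIP5-AS1 takes 38.8% to 70.8%. The 2652-nt model of HNRNPK takes 17.1% in the BCL2L11 library of set 1 and 60.3% to 73.3% in the rest. The 2889-nt model takes 38.9% and 15.8% in the BCL2L11 and TRIM9 libraries of set 1 and at most 2.16% in the rest.

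Apart from HNRNPK, OIP5-AS1 and its neighbour OIP5, the listed sources and partners of miR-7 were low or near 0 in poly-A RNA. The MIR7-1 hairpin (chr9:83969748-83969857, minus strand) lies within the span of 7 of the 11 HNRNPK models and had 0.00247 to 0.0494 FPKM. MIR7-2 was listed at 0 in all libraries, and MIR7-3HG, the host of the miR-7-3 hairpin, had 0.0649 to 0.278 FPKM. CDR1 was listed at 0; its circular antisense RNA has no poly-A tail, and poly-A selection does not capture such RNA. LINC00632, the long RNA of the Cdr1as locus, had 1.31 and 0.454 FPKM with BCL2L11 (set 2, set 1), 1.87 and 0.422 with TRIM9, and 1.15 and 0.549 with GFP. It was higher in set 2 in 3 of 3 groups, with a set difference of 0.72 (SE 0.17, adjusted p = 0.0266 in limma). LINC00632 reached 1 FPKM in set 2 alone, so it met the filter only through the set where it was high. Its call between the sets therefore gives no support. The call was also lost when any 1 of the BCL2L11 or TRIM9 libraries was left out. The list of 9 names also holds HNRNPK, OIP5-AS1 and OIP5. Of the 9, 8 were listed and 4 tested, namely these and LINC00632, so the medians below include the members HNRNPK and OIP5-AS1. For the triggers 0 passed in limma, none with an unadjusted p under 0.05, where 0.00659% of all genes passed in each comparison with GFP. Of all 15183 genes, 83 (BCL2L11 minus GFP) and 175 (TRIM9 minus GFP) had an unadjusted p under 0.05 in limma. The median differences were 0.03 for BCL2L11 minus GFP and 0.15 for TRIM9 minus GFP, beside -0.08 and -0.04 over all genes.

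miR-671-5p, which directs the slicing of Cdr1as, had 76 and 110 reads with BCL2L11 (set 2, set 1), 72 and 196 with TRIM9, and 104 and 126 with GFP. It was lower in set 2 in each group, as miR-7-1-3p was, with a set difference of -0.59 (SE 0.20, interval -1.0 to -0.17, adjusted p = 0.0583 in edgeR). BCL2L11 minus GFP was -0.29 (SE 0.36) and TRIM9 minus GFP was 0.25 (SE 0.35), with adjusted p-values of 0.995 and 0.973 in edgeR. Its partner strand miR-671-3p had a set difference of 0.07 (SE 0.16, adjusted p = 0.883 in edgeR).

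The genes of the proteins that act on the miR-7-1 hairpin were all expressed as poly-A RNA, and none of the 9 passed for the triggers. DROSHA and DGCR8, the nuclear cutting complex, ranged over 15.7 to 21.1 FPKM and 18.5 to 26.1 FPKM. MSI2 and its partner ELAVL1 (HuR), which hold back the cutting of the miR-7-1 hairpin, ranged over 10.6 to 19.4 FPKM and 19.4 to 26.6 FPKM, and the related MSI1 over 6.98 to 12.4 FPKM. ILF2, which also slows the cutting of the hairpin, ranged over 284.6 to 426.4 FPKM. SRSF1, a splicing factor reported to favour miR-7 maturation, ranged over 101.0 to 201.6 FPKM, and QKI, an RNA-binding protein linked to retention of the miR-7-1 hairpin, over 7.25 to 25.9 FPKM. The median differences of the 9 were -0.22 for BCL2L11 minus GFP and -0.14 for TRIM9 minus GFP, beside -0.08 and -0.04 over all genes, with 0 calls and 0 unadjusted p-values under 0.05 in limma. Over all 15183 genes 0.00659% passed in each comparison with GFP. An unadjusted p under 0.05 in limma was reached by 83 (BCL2L11) and 175 (TRIM9) of them.

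Between the library sets 3 of these 9 rose in set 2 and 0 fell, where 22.5% of all genes rose and 10.3% fell. QKI had 22.8, 24.4 and 25.9 FPKM in set 2 (BCL2L11, TRIM9, GFP) and 7.25, 7.86 and 12.0 FPKM in set 1. The sets did not overlap, and the difference was 1.37 (SE 0.16, adjusted p = 0.0111 in limma). It passed with every library left out in turn (adjusted p 0.00344 to 0.0354 in limma). SRSF1 had 172.1, 169.8 and 201.6 FPKM in set 2 and 101.8, 101.0 and 120.8 FPKM in set 1, a difference of 0.74 (SE 0.13, adjusted p = 0.014 in limma). MSI2 had 17.4, 19.3 and 19.4 FPKM in set 2 and 11.7, 10.6 and 11.7 FPKM in set 1, a difference of 0.68 (SE 0.14, adjusted p = 0.0177 in limma). The calls of SRSF1 and MSI2 were lost when any 1 of the BCL2L11 or TRIM9 libraries was left out, and 1 of the 9, QKI, then passed; over all libraries left out in turn the differences themselves were 0.74 to 0.75 for SRSF1 and 0.61 to 0.75 for MSI2. ELAVL1 was 0.15 higher in set 2 (SE 0.13, adjusted p = 0.431 in limma) and DROSHA 0.24 (SE 0.13, adjusted p = 0.196 in limma), while DGCR8 was at -0.23, MSI1 at -0.10 and ILF2 at -0.32, none passing. The share of the 9 that passed was thus near that of all genes.

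**Figure D5:**
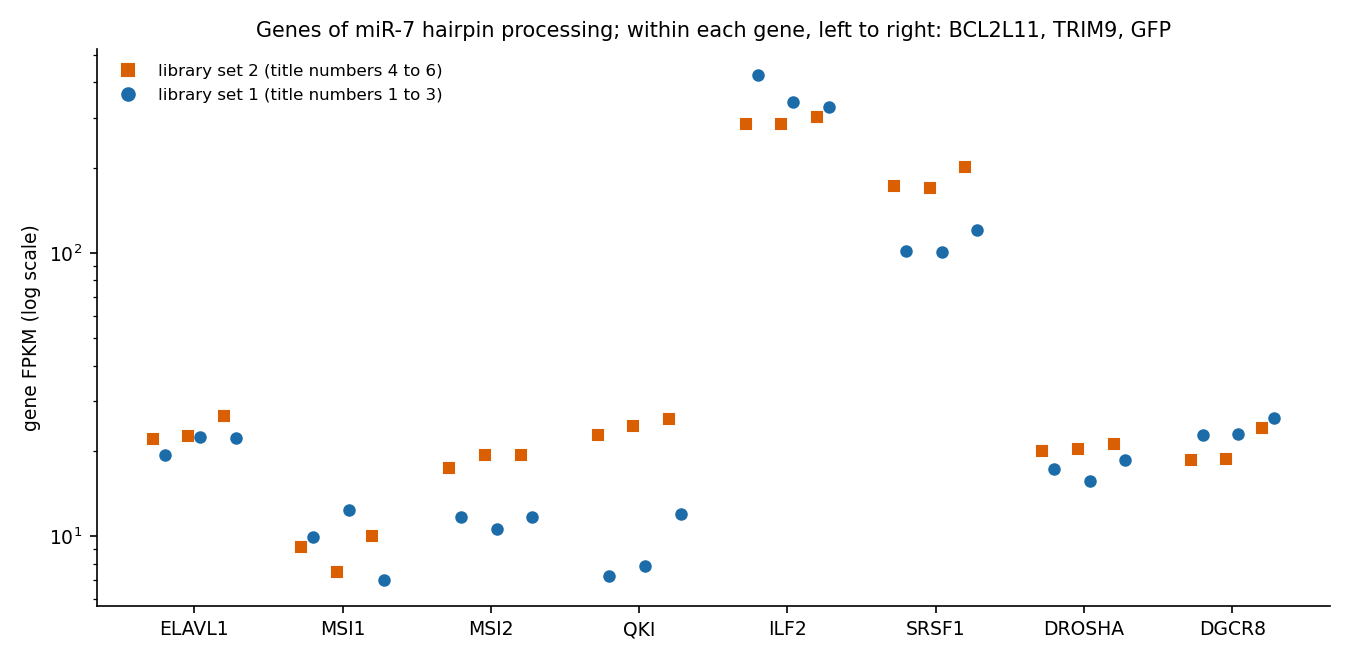
Gene FPKM (log scale) of 8 genes that act on miR-7 hairpins in each poly-A library, with squares for library set 2 and circles for set 1, and BCL2L11, TRIM9 and GFP from left to right within each gene. QKI lies at 22.8 to 25.9 FPKM in set 2 and 7.25 to 12.0 FPKM in set 1; SRSF1 and MSI2 are also higher in set 2 in each group.

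None of the reported target genes of miR-7, listed from work on human or mouse cells, passed in the comparisons of the triggers. Of 28 listed, 27 were tested (IRS1 stayed under the filter), 0 passed in limma and 0 had an unadjusted p under 0.05. Among all 15183 genes 0.00659% passed in each comparison with GFP. Few genes of any kind had an unadjusted p under 0.05 in limma: 83 for BCL2L11 minus GFP and 175 for TRIM9 minus GFP. The medians were -0.15 for BCL2L11 minus GFP and -0.04 for TRIM9 minus GFP, beside -0.08 and -0.04 over all genes. MTOR, a growth kinase, was at -0.31 for BCL2L11 and -0.44 for TRIM9 (SE 0.34 each), and TNK2, another kinase, at 0.30 and 0.49 (SE 0.40 each). UBE2A, a ubiquitin-conjugating enzyme, was at -0.15 and -0.34 (SE 0.30 each), and SPATA2 was at -0.31 for BCL2L11 minus GFP (SE 0.32). Among the targets of high mean level were PARP1 (168.0 FPKM), VDAC1 (116.7 FPKM), PSME3 (61.0 FPKM), UBE2A (45.8 FPKM) and YY1 (29.2 FPKM).

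Between the sets 10 of the 27 targets rose in set 2 and 0 fell, beside 22.5% and 10.3% of all genes, and 5 rose with FPKM rescaled by TMM. Of the 10, EGFR and IRS2 reached 1 FPKM in set 2 alone. They met the filter only through the set where they were high, so their calls give no support. Without a BCL2L11 library 3 rose, and without a TRIM9 library 2 did; XRCC2 and PAX6 passed in every such fit. XRCC2, of homologous recombination, had 21.4, 25.0 and 24.5 FPKM in set 2 (BCL2L11, TRIM9, GFP) and 5.79, 8.08 and 11.0 FPKM in set 1, a difference of 1.44 (SE 0.17, adjusted p = 0.0111 in limma). PAX6, a developmental transcription factor that is a miR-7 target in the mouse brain, had 9.23, 9.28 and 8.24 FPKM in set 2 and 5.15, 5.24 and 3.3 FPKM in set 1, a difference of 0.85 (SE 0.15, adjusted p = 0.014 in limma). The sets did not overlap for either gene. The chromatin organiser SATB1 (0.94), the insulin signal adaptor IRS2 (0.79), the focal adhesion kinase PTK2 (0.74), YY1 (0.71), SKP2 (0.65), IGF1R (0.57), EGFR (0.51) and MTOR (0.44) were the others by log2 difference, of which EGFR stood at only 0.394 to 1.17 FPKM.

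ZSWIM8, the substrate receptor of the ubiquitin ligase of target-directed degradation, had 9.0 and 10.8 FPKM with BCL2L11 (set 2, set 1), 8.56 and 9.98 with TRIM9, and 12.3 and 7.29 with GFP. BCL2L11 minus GFP was 0.05 and TRIM9 minus GFP was -0.04 (SE 0.34 each). Its scaffold CUL3 was at -0.37 and -0.47 (SE 0.36 each), the adaptor ELOC at 0.12 and 0.42 (SE 0.32 each) and the accessory ligase ARIH1 at -0.12 and -0.22 (SE 0.44 each); the ubiquitin-conjugating UBE2R2 was at -0.23 and -0.12 (SE 0.28 each) and the adaptor ELOB at 0.14 for TRIM9 minus GFP (SE 0.55). None of the 6 passed for the triggers in limma, with 0 unadjusted p-values under 0.05, where 0.00659% of all genes passed in each comparison with GFP. Unadjusted p-values under 0.05 in limma numbered 83 (BCL2L11 minus GFP) and 175 (TRIM9 minus GFP) over all 15183 genes. Their medians were -0.05 for BCL2L11 minus GFP and -0.08 for TRIM9 minus GFP, beside -0.08 and -0.04 over all genes. Of the 6, 1 rose and 1 fell in set 2 against set 1, beside 22.5% and 10.3% of all genes. Between the sets ELOB fell to 120.0, 145.8 and 130.7 FPKM in set 2 (BCL2L11, TRIM9, GFP), against 274.3, 268.3 and 246.6 FPKM in set 1, a difference of -0.99 (SE 0.14, adjusted p = 0.0115 in limma) that passed with each library left out. ARIH1 was 0.72 higher in set 2 (SE 0.14, adjusted p = 0.0159 in limma) but did not pass when any 1 of the BCL2L11 or TRIM9 libraries was left out.

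Among the relatives of HNRNPK, 24 of the 25 hnRNP and PCBP genes were tested and 0 passed for the triggers in limma, with 0 unadjusted p-values under 0.05 and medians of -0.01 for BCL2L11 minus GFP and -0.05 for TRIM9 minus GFP. Over all 15183 genes the medians were -0.08 and -0.04, and 0.00659% passed in each comparison with GFP. Of these genes 83 (BCL2L11) and 175 (TRIM9) had an unadjusted p under 0.05 in limma. The nearest were HNRNPR at -0.52 (SE 0.35) and HNRNPLL at -0.42 (SE 0.46) for BCL2L11 minus GFP, and HNRNPAB at -0.33 (SE 0.38) and HNRNPU at -0.28 (SE 0.34) for TRIM9 minus GFP. HNRNPUL2 and HNRNPUL1 were at 0.25 (SE 0.32) and 0.34 (SE 0.47) for BCL2L11 minus GFP, and PCBP4 and HNRNPH1 at 0.29 (SE 0.38) and -0.20 (SE 0.30) for TRIM9 minus GFP. By level HNRNPA2B1 (642.4 FPKM), HNRNPA1 (627.2 FPKM), HNRNPC (375.4 FPKM), HNRNPK (323.1 FPKM), HNRNPM (230.2 FPKM) and HNRNPAB (193.7 FPKM) led. Between the sets SYNCRIP (0.61) and HNRNPLL (0.80) rose in set 2, and HNRNPA2B1 (-0.58), HNRNPM (-0.45) and HNRNPAB (-0.50) fell, 2 and 3 of 24 beside 22.5% and 10.3% of all genes. None of these 5 passed when any 1 of the BCL2L11 or TRIM9 libraries was left out, and with FPKM rescaled by TMM 1 rose and 4 fell.

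As a description, the features most like each member over the 6 libraries were sought by Pearson correlation of log2 values, among 443 miRNAs or 14189 genes measured in the same libraries as the member. For miR-7-5p these were miR-10b-5p (r = 0.923), miR-449a (r = 0.876) and miR-1255a (r = 0.872). miR-10b-5p had 10323.6 and 9003.1 CPM with BCL2L11 (set 2, set 1), 10819.4 and 9095.6 with TRIM9, and 9370.3 and 10387.1 with GFP. In TMM-scaled CPM it followed miR-7-5p in being lower in set 2 with GFP alone. By share of reads, miR-7-5p was also lower in set 2 with TRIM9 (12.9% against 15.7%). For OIP5-AS1 they were CCDC25, SLC16A1 and SYCP2L (r = 0.994, 0.991 and 0.991), and for HNRNPK they were USP4, ILDR2 and USP37 (r = 0.994, 0.992 and 0.992). Each is the highest of all features compared, over 6 points that share library set and scaling.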

How the data were processed

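The tools named per the submitters' processing notes were StringTie 2.1.3, STAR, cutadapt 3.4 and DESeq2 1.20.0, with the build hg38; the sources used here state neither their roles nor a strand setting. The deposited count table gave unnormalised reads per mature miRNA. Coverage signal (mean depth per base) and FPKM per transcript were read from the deposited tables, whose headers are those of StringTie. The authors' deposited comparison tables gave, per the file headers, mean normalised signal and its log10, log2 fold change, standard error, a test statistic (score), fold as a ratio, p-value and q-value. Their fragment totals are not known here, so the depth behind FPKM is given only as coverage.

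Counts were fitted in edgeR 4.0.16 (R 4.3.3; TMM, filterByExpr by group, glmQLFit and glmQLFTest, group only, 6 libraries in 1 fit; 443 of 1153 miRNAs tested). Gene FPKM, summed over transcripts, was fitted as log2(FPKM + 1) by limma-trend (version 3.58.1, group as the only term), keeping genes of at least 1 FPKM in at least 2 libraries (15183 of 67053), and transcripts likewise (33099). Tests were two-sided, with Benjamini-Hochberg adjustment over all features of a comparison and a threshold of 0.05. A fold on the log2(FPKM + 1) scale understates the change of low genes. Fits were tested on simulated data. Shares, reads and intervals of 95% were computed in Python 3.11.15 with pandas 2.3.3 and scipy 1.17.1. No 2 libraries of either assay were identical (0 of 15 pairs each). Replicates were given as biological, and p-values measure the spread between these libraries.

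The named features were the 4 members, the listed arms of miR-7 and miR-671, transcript models with a mean of at least 1 FPKM up to 8 a gene, the sources, partners and processing genes, of other lists the 6 of highest level and 4 of lowest p per comparison with GFP, the 3 most like features per member and the 10 leading miRNAs. Some genes under this rule count in their lists and are not reported here by name. Genes that passed between library sets and ZSWIM8 were named after their values were seen. Members and all lists were chosen with earlier results of these data known. The comparison of library sets (group and set in 1 fit) was added after the data were seen. Alternatives were size factors of DESeq2, total counts with and without miR-148a-3p, other filters (none, 100 counts, FPKM of 5), DESeq2 1.42.0, a pseudocount of 0.1, FPKM rescaled by TMM, limma without trend, fits of only the groups compared, the library set as a block and leaving out each library.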

Additional observations from a re-analysis of the deposited data

How the results depend on the processing

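No member passed for the triggers under any setting tried. By total counts miR-7-5p turned to -0.06 (BCL2L11 minus GFP), -0.03 (TRIM9 minus GFP) and -0.18 (set 2 minus set 1); with the compared groups alone miR-7-1-3p turned to 0.01 (BCL2L11 minus TRIM9). With TMM-rescaled FPKM the 8829-nt Cyrano model turned to 0.02 and 0.02 (BCL2L11 and TRIM9 minus GFP). The cause of these turns was not tested. miRNAs called numbered 0 by total counts and 0 with the compared groups alone for BCL2L11 minus GFP, and likewise 0 and 0 for BCL2L11 minus TRIM9. With no filter they numbered 1 for TRIM9 minus GFP and 4 for BCL2L11 minus TRIM9, and with DESeq2 they numbered 3 for BCL2L11 minus TRIM9. Genes called for TRIM9 minus GFP numbered 4 with the compared groups alone. miRNAs called between the sets numbered 37 by total counts without miR-148a-3p.

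Leaving out each library, with the lone library of a group taken to vary like the others, moved miR-7-5p over -0.12 to 0.22 (BCL2L11 minus GFP), -0.06 to 0.27 (TRIM9 minus GFP), -0.23 to 0.08 (BCL2L11 minus TRIM9) and -0.05 to 0.29 (set 2 minus set 1). For miR-7-1-3p these ranges were -0.64 to 0.24, -0.62 to 0.25, -0.52 to 0.50 and -0.87 to -0.77, for HNRNPK -0.20 to 0.42, -0.15 to 0.46, -0.20 to 0.11 and 0.27 to 0.47, and for OIP5-AS1 -0.57 to -0.03, -0.21 to 0.41, -0.71 to -0.09 and 0.35 to 0.58. In the same 3 comparisons of groups, the 8829-nt Cyrano model ran over -0.52 to 0.38, -0.50 to 0.42 and -0.49 to 0.43, the 2652-nt HNRNPK model over -1.86 to 0.44, -0.09 to 0.65 and -2.15 to 0.15, and the 1384-nt Cyrano model over -1.32 to -0.81, -0.11 to 0.14 and -1.33 to -0.83. Calls ran over 0 to 0, 0 to 0 and 0 to 2 miRNAs and 1 to 1, 1 to 5 and 2 to 2 genes, and between the sets over 2 to 63 miRNAs and 1265 to 8178 genes.

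Replicates carry no stated pairing. With the library set as a replicate block the calls numbered 5 miRNAs for BCL2L11 minus GFP, 4 miRNAs for BCL2L11 minus TRIM9 and 6 genes for TRIM9 minus GFP, none of them a member. Between groups, the deviations of replicates from their means correlated at 0.493 to 0.83 over genes and 0.19 to 0.347 over miRNAs, a hint from the data and not from the design. No setting called a transcript model of OIP5-AS1 or HNRNPK or a member of the 5 gene lists for the triggers. miR-7-1-3p had 133 to 362 reads a library; the part of depth in its spread was not tested.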
